A study of Mus musculus with 360 samples.

Results

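The 81 genes described here encode the proteins of the cytoplasmic ribosome in single mouse skeletal stem and progenitor cells. They were chosen by name alone: every row called Rpl or Rps followed by a number and at most 1 further letter (a, x, y or l), plus Rplp0, Rplp1, Rplp2 and Rpsa, with the S6 kinases left out. This took 81 of the 24015 rows of each table, 49 of the large subunit and 32 of the small subunit. The study asked how CD51+;CD200+ cells differ between the posterior frontal (PF) suture, which fuses early in life, and the sagittal (SAG) and coronal (COR) sutures, which do not fuse then, with the tibial growth plate (GP) as reference. All cells came from wild-type CD-1 mice at postnatal day 3, with no allele or agent that differed between the groups, and were sorted singly into wells as positive for CD51 and CD200 and negative for CD105, 6C3, both forms of Thy1, Tie2, Ter119 and CD45. Each tissue filled 2 plates of its own, and after a filter of at least 500 genes and 10000 reads 325 of 360 cells remained: 34 and 53 on PF plates 1 and 2, 30 and 56 for SAG, 16 and 58 for COR, and 20 and 58 for GP. Many mice were pooled and no animal is named for any cell, so each tissue is 1 sample. The plates give the only spread, no difference between tissues has a test, and plate and tissue cannot be told apart.

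A ribosome is built from ribosomal RNA and a fixed set of proteins, nearly all of which are needed in equal amounts. The large subunit joins amino acids, the small subunit reads the message, and the acidic P proteins form the stalk that recruits elongation factors. The mRNAs of these proteins are short and abundant, and they typically begin with a run of C and T bases, the terminal oligopyrimidine tract, through which their translation is controlled together by mTOR signalling. Growing and matrix-secreting cells make many ribosomes, and the gene Rn45s in these tables stands for the ribosomal RNA precursor.

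The letters around the starts of these genes were searched for runs of C and T. Promoters from RefSeq (GRCm38.p6) were found for 60 of the 81 symbols, with 72 starts in all. The longest run of only C and T was searched, on the strand that reads as the mRNA, from 50 bases before to 50 after each start. A run of at least 8 bases was present at 57 of 72 starts (79.2%), against 35.7% of all 32851 starts in the table. Runs of only A and G, which are C and T on the other strand, were present at 22.2% of the ribosomal protein starts and 38.1% of all. The run lay over the start itself at 20.8% of the ribosomal protein starts and 3.11% of all. Capitals mark the run within 30 bases around it, 5′ to 3′ on the strand that reads as the mRNA. The genes are the 3 most often read on SAG plate 2 (Rps26, Rpl4, Rps9) and 3 that had 0 or 2 reads there (Rpl14, Rpl15, Rps18). Rpl7a is added, whose run was the longest at 21 bases.
Rps26 (chr10:128626485-128626514, minus strand): aagccgccggaTCCTCTTTCgagtcttggc
Rpl4 (chr9:64173405-64173434, plus strand): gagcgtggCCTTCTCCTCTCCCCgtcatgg
Rps9 (chr7:3704024-3704053, plus strand): caaccgccttgTCTCTCTTTgtctcgggcc
Rpl14 (chr9:120571501-120571530, plus strand): agggcgggCCCTCTCTCTTCTCgctgagcg
Rpl15 (chr14:18270968-18270997, minus strand): gagaaagCCTTCTTCCTTTCCTCTggcggc
Rps18 (chr17:33955648-33955677, minus strand): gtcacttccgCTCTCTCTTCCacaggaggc
Rpl7a (chr2:26910788-26910817, plus strand): cacaaTTCCCTCTTCTTTCTTTCTCCagca
The first 3 genes had runs of 9, 15 and 9 bases, and the next 3 had runs of 14, 17 and 11 bases. These genes were picked by their reads on SAG plate 2, and a relation between runs and those reads was not tested. A run is a description of the letters and no proof of a start site or of control.

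SAG plate 2 stood apart from every other plate before any ribosomal protein gene was considered. Rn45s took 86.8% of its reads against 20.2% to 30.96% on the other 7 plates, and its cells held a median of 875 genes with a read against 2111.5 to 3867. Its depth in other reads was not low, with a median of 184232 reads other than Rn45s per cell (range 84411 to 288130) against medians of 125830 to 511698 elsewhere. The sorting markers were weaker there too: Itgav, which encodes CD51, was read in 5.36% and Cd200 in 16.1% of its cells, against 29.4% to 68.8% and 44.1% to 68.8% on the other plates. Of the lists for other cell types, the 8 blood markers and the 8 muscle markers were all at 0 CPM (reads scaled to a fixed library total) on SAG plate 2, while 2 of 7 endothelial markers gave a sum of 28.5 CPM, within the 0 to 53.8 CPM of the other plates. The 11 osteoblast markers summed to 47399 CPM there and to 112224 to 301542 CPM elsewhere. The 11 chondrocyte markers summed to 21695 CPM on SAG plate 1 and 14171 on SAG plate 2, against 252 to 6571 CPM on the other 6 plates, and the 7 fibroblast markers to 14121 and 13856 CPM, against 19076 to 39085. Whether these differences have a part in the ribosomal protein levels was not tested. All levels below are relative to the reads other than Rn45s.

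The ribosomal protein genes took 2.11% to 2.46% of these reads on 6 of the 8 plates, less on PF plate 1, and far less on SAG plate 2. The summed share was 1.73% on PF plate 1 and 2.46% on plate 2, 2.21% and 0.124% on the SAG plates, 2.27% and 2.21% on the COR plates, and 2.11% and 2.12% on the GP plates. Counting intervals were narrow (95% Poisson, 0.122% to 0.126% on SAG plate 2 and 2.199% to 2.22% on SAG plate 1) and cover counting error only, since these are reads after PCR and not molecules. SAG plate 1 was thus 17.8 times SAG plate 2, and its share lay between those of the 2 COR plates. Summed to tissues, PF had a share of 2.32%, COR 2.21% and GP 2.12%. The SAG share was 0.957% with both plates and 2.21% without plate 2. Counted over all reads, Rn45s included, SAG plate 2 fell to 0.0164% against 1.20% to 1.82% elsewhere.

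The same gap was seen cell by cell. The median share per cell was 1.64% and 2.54% on the PF plates, 1.92% and 0.123% on the SAG plates, 2.37% and 2.17% on the COR plates, and 2.17% and 2.09% on the GP plates. Cells varied widely within a plate, from 0.524% to 4.37% on PF plate 1 and from 0.606% to 8.83% on GP plate 2. On SAG plate 2 the range was 0.0022% to 0.637%. Of its 56 cells, 2 reached the lowest share of the 269 cells on other plates, and 3 of those 269 lay at or below its highest cell. A share is relative, so fewer ribosomal protein transcripts and more of other transcripts cannot be told apart.

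**Figure D1:**
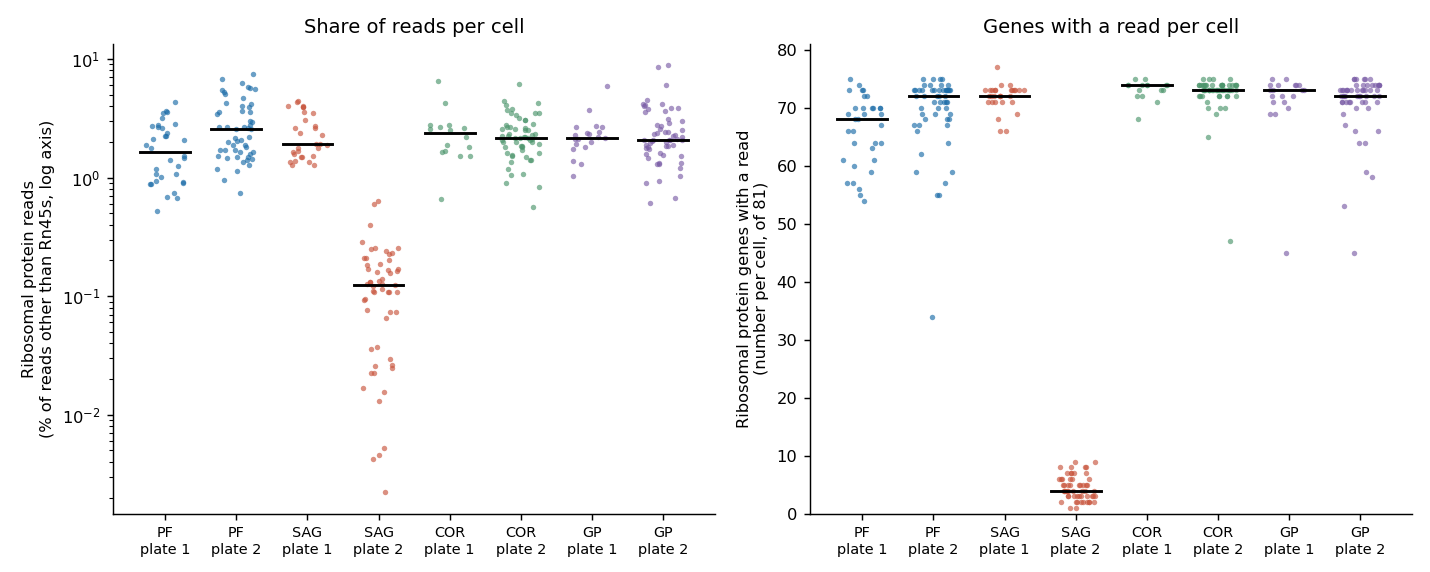
Each point is 1 cell that passed the filter, by plate, and black lines are medians. The left panel gives ribosomal protein reads as a percentage of reads other than Rn45s (log axis) and the right panel the number of the 81 genes with at least 1 read; cells of SAG plate 2 had at most 9 genes with a read and every other cell at least 34.

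The number of ribosomal protein genes with a read separated SAG plate 2 without overlap. A cell had a median of 68 of the 81 genes with a read on PF plate 1, 72 on PF plate 2, 72 on SAG plate 1, 74 and 73 on the COR plates, and 73 and 72 on the GP plates. On SAG plate 2 the median was 4, with a range of 1 to 9, while the lowest cell elsewhere had 34. The gap was as wide at equal depth. When 100000 reads outside Rn45s were drawn at random from each cell, 37 of the 325 cells were too shallow to enter, 1 of them on SAG plate 2, and the medians were 4 on SAG plate 2 and 68 to 73 on the other plates. The 26 cells on other plates that had no more genes than the richest cell of SAG plate 2 (1325) still held a median of 63.5 ribosomal protein genes, with a range of 34 to 74. The shallowest cell of all, with 3628 reads other than Rn45s, had reads of 45 of them.

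On the 7 other plates most of these genes were read in nearly every cell. Over the 269 cells, 68 of the 81 genes were read in at least 90%, 5 in 50% to 90%, 5 in fewer and 3 in none. Rpl4, a protein that lines the exit tunnel of the large subunit, had 1631 and 1669 CPM on the PF plates, 1703 on SAG plate 1, 1828 and 1862 on the COR plates and 1906 and 1469 on the GP plates. Rplp0, the base of the stalk, had 1420 and 1419, 1661, 1907 and 1571, and 1795 and 1791 CPM in the same order.

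Comparison between genes needs a length. A GENCODE vM1 transcript (NCBIM37, the same build as mm9) was found for 79 of the 81 genes, all but Rpl41 and Rps4l, and the transcript with the longest coding sequence was used, with a median of 737 bases and a range of 271 to 4999. Per kilobase, Rplp0 and Rpl4 had the highest levels, with means over the 7 plates of 1216 and 1212 CPM per kb, followed by Rpl13 (958), Rps14 (926) and Rpl10 (777). The 71 genes with a mean of at least 10 CPM had a median of 251 CPM per kb and quartiles of 183 and 405, and their extremes were 33.5 and 1216. The median was 246 for 41 large subunit genes and 274 for 30 small subunit genes, both between the quartiles of the 71. The lowest value of the 71, that of Rpl24, and that of Rps20 rest on transcripts of 4999 and 3706 bases, far longer than the others, and are uncertain.

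A few core genes had almost no reads in any cell. Rpl26 had 0 reads in all 325 cells. Rpl30, Rpl34 and Rps27, all ordinary subunits that every ribosome contains, were read in 12, 11 and 11 of the 269 cells, at no more than 2.33 CPM on any plate. Rpl29 was read in 175 of the 269 cells (65.1%) but only at 2.23 to 10.5 CPM. Ribosomal protein genes have many processed copies in the genome, and a read that fits several places can be lost or shared in counting. In windows of 100 bases along the transcript, an exact match elsewhere in the genome was found for 99.6% of the windows of Rps27 (chr3:90016593-90017573, mm9), 63.01% of those of Rpl29, 53.2% of Rpl26, 48.2% of Rpl30 and 39.6% of Rpl34. The same was true of well-read genes, however, with 93.9% for Rpl10, 94.35% for Rps6 and 85.5% for Rpl13, and over the 79 genes the share of windows with a copy had a Spearman rho of 0.13 with the level per kb (Pearson 0.13 on the log2 scale), given as a description. How the authors' counting treated such reads is not given in the sources used here, so the levels of these genes are uncertain, and whether copies account for the near-empty rows was not tested.

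Several members have a near relative, and 3 of these (Rpl3l, Rpl10l and Rpl39l) were little read. Rpl3l, the muscle form of Rpl3, and Rpl10l, the testis form of Rpl10, had 0 reads in 325 cells, and 3 counts, the limit that a count of 0 allows, would be 0.923% of cells. Their core partners Rpl3 and Rpl10 had 646 to 807 and 491 to 723 CPM on the 7 plates. Rpl39l was read in 48 of the 269 cells (17.8%) at 4.73 to 15.2 CPM, against 54.3 to 107 CPM for Rpl39. Rps27l, a p53-responsive relative of Rps27, had 75.5 to 110 CPM and reads in 232 of the 269 cells, while Rps27 itself had at most 0.51 CPM. Rpl22, Rpl7 and Rpl36a also have relatives, outside the name rule. Rpl22 had 27.6 to 77.7 CPM and Rpl22l1 48.7 to 116, Rpl36a had 44 to 83.9 and Rpl36al 52.7 to 108, and Rpl7 had 437 to 742 against 67.3 to 227 for Rpl7l1.

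**Figure D2:**
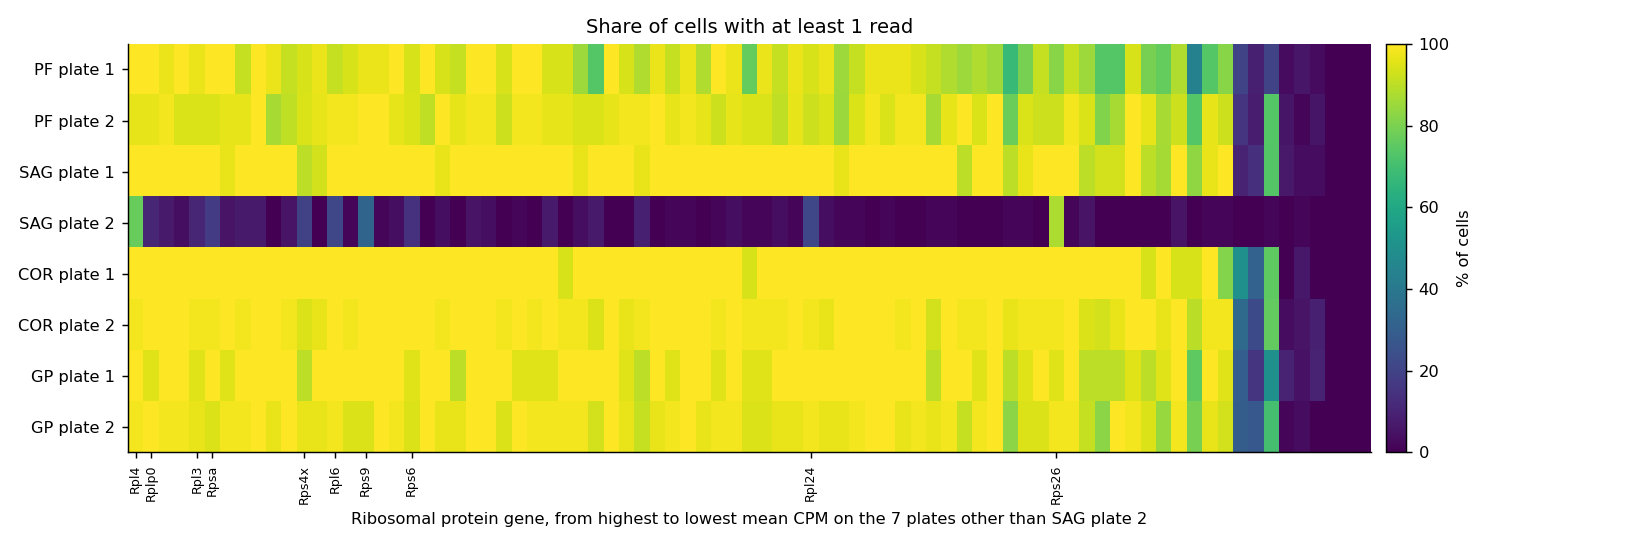
Each column is 1 of the 81 genes, ordered by mean CPM over the 7 plates other than SAG plate 2, each row 1 plate, and colour gives the percentage of cells with at least 1 read, with names for the 10 genes read in at least 10% of SAG plate 2 cells. On SAG plate 2 only Rpl4 (76.8%) and Rps26 (87.5%) were read in most cells, while 68 genes were read in at least 90% of the 269 cells of the other plates.

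Between PF, COR and GP the ribosomal protein genes hardly differed. A gene was called between 2 tissues when the log2 ratio of the summed levels, with 1 CPM added, was at least 1 in size and all 4 plate ratios had that sign, among genes with at least 10 CPM in either tissue. Between PF and COR this held for 1 of 73 members, where 11.8% of all 9514 genes were called in either direction. Between PF and GP it held for 1 of 74, where 16.4% of all genes were called, and between COR and GP for 0 of 74, where 13.4% were called. The spread of the members was also narrow. The interquartile range of their log2 ratios was 0.25 for PF to COR, 0.24 for PF to GP and 0.19 for COR to GP, against 0.96, 1.07 and 0.93 for all genes. Their median log2 ratios were 0.13, 0.18 and 0.05, beside 0.03, 0.10 and 0.07 for all genes. All genes were not matched to the members on level, and some other lists also had few calls. Between PF and COR, 0 of 77 mitochondrial ribosomal protein genes, 0 of 31 initiation factors and 0 of 15 abundant housekeeping genes were called. Of 21 cell cycle genes, 9 were lower in PF than in COR. Few calls were thus not particular to the ribosomal protein genes.

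Both genes called in these comparisons were rarely read. Rps4l, a retrogene relative of Rps4x, had 14.4 and 15.6 CPM on the PF plates, 42.9 and 36.98 on the COR plates and 19.8 and 22.2 on the GP plates. It was read in 15 of 87 PF cells (17.2%, exact binomial interval 9.98% to 26.8%). The gene had a read in 28 of 74 COR cells (37.8%, 26.8% to 49.9%), and in GP in 23 of 78 cells (29.5%, 19.7% to 40.9%), while 64.7% of its reads on COR plate 1 came from 1 cell. The log2 ratio of PF to COR was -1.24, with plate ratios from -1.52 to -1.19. Rpl39l had 4.73 and 4.96 CPM on the PF plates and 5.67 and 15.2 on the GP plates, so its ratio of -1.30 for PF to GP came from GP plate 2. Apart from these low genes, no member reached a log2 ratio of 1 in size with all plates agreeing between the 3 tissues.

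SAG plate 1 did not stand apart either. With its 30 cells set against both plates of another tissue, 0 of 73 members were called against PF, 0 of 73 against COR and 0 of 74 against GP, where 33.3%, 31.9% and 34% of all genes were called in either direction. With 1 SAG plate behind it, a call needs 2 plate ratios of 1 sign in place of 4. The members' median log2 ratios were -0.07, 0.05 and 0.11. With both SAG plates summed, 2 of 73 members were lower than in PF (16.9% of all genes were called lower), 22 of 73 lower than in COR (18.9%) and 12 of 74 lower than in GP (18.3%). The members' median log2 ratios were then -1.35, -1.24 and -1.14, beside -0.29, -0.29 and -0.23 for all genes. The counts thus do not follow the size of the fall. A call also needs SAG plate 1 to lie below both plates of the other tissue, and PF plate 1 was low for most members. Rpl27a, a large subunit protein, was called in all 3 comparisons: it had 88.5 and 0 CPM on the SAG plates, against 98.9 and 157 in PF, 115 and 118 in COR and 108 and 119 in GP. None of these calls was left without SAG plate 2.

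The members' order of levels was nearly the same on 7 plates. Over the 81 genes, the Pearson correlation of log2(CPM + 1) between any of the 21 pairs of these plates was 0.986 to 0.995, and between SAG plate 2 and another plate 0.434 to 0.471, given as a description. The ratio of summed large to small subunit reads was 1.66 to 1.90 on the 7 plates and 3.13 on SAG plate 2, where Rpl4 alone made up 56.4% of the member reads.

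Scaled by total reads, PF plate 1 was the lowest of the 7 plates for most members and PF plate 2 the highest, which no longer held for most members with TMM factors. PF plate 1 lay below the other 6 plates for 56 of 75 members, where 21.8% of all genes did so, and PF plate 2 lay above the other 6 for 46 of 75, where 17.8% did. Between the PF plates the median log2 ratio was 0.66 for the members and 0.40 for all genes, and 13 of 73 members were at least 2-fold higher on plate 2, where 31.1% of all genes were. Rps25, a small subunit protein, had 71.2 and 186 CPM, Rpl10a 129 and 324 CPM and Rpl11, a large subunit protein that can bind Mdm2, 93.5 and 219 CPM. Scaling mattered here. With TMM factors the median was 0.33 for members and 0.04 for all genes, 64 of 73 members were still higher on plate 2, but 1 was called. PF plate 1 was then lowest for 33 of 75 and PF plate 2 highest for 33 of 75. With the 10 most abundant genes of each plate taken out of the total, PF plate 1 was lowest for 32 of 75 and PF plate 2 highest for 41 of 75. The PF shares were then 2.60% and 3.14%, and the other plates without SAG plate 2 lay at 2.61% to 3.20%. The 11 osteoblast markers summed to 301542 CPM on PF plate 1 and 186065 on plate 2, and their part in the difference was not tested.

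**Figure D3:**
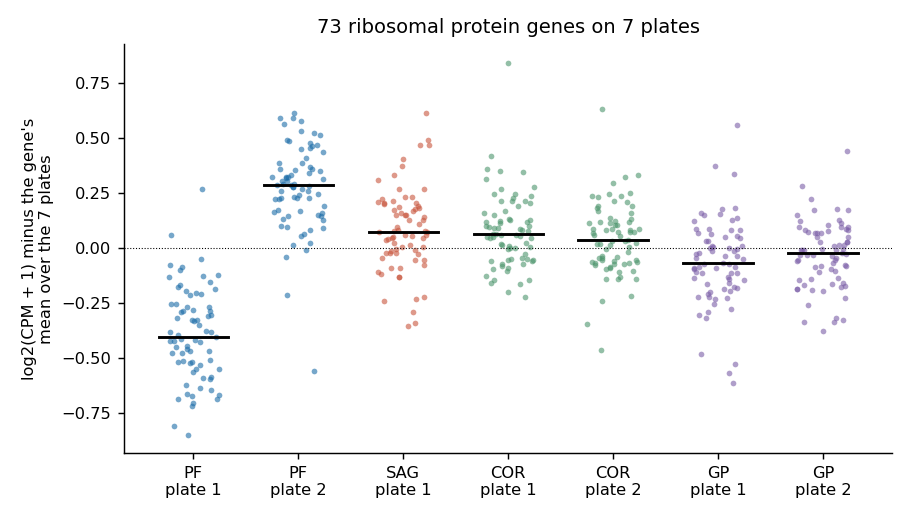
Each point is 1 of 73 ribosomal protein genes with a mean of at least 10 CPM, given as log2(CPM + 1) minus its own mean over the 7 plates, and black lines are medians. The median was -0.40 on PF plate 1 and 0.29 on PF plate 2, and between -0.07 and 0.08 on the other 5 plates.

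On SAG plate 2, most ribosomal protein genes had few or no reads, and the loss was uneven. Of the 81 genes, 31 had 0 reads over the 56 cells, 15 had 1 to 3 reads and 35 had more, and 21 were read in 1 cell. A count of 0 allows up to 3 counts, or 5.36% of the 56 cells. At least 2-fold lower than on SAG plate 1 were 72 of 73 members, where 49% of all 9555 genes were, and SAG plate 2 lay below all 7 other plates for 74 of 75, where 37% of all genes did so. The median log2 ratio to SAG plate 1 was -6.51 for the members, and -6.98 with the 25 unread members set at the floor of 3 counts over the plate (0.29 CPM). Over all genes it was -0.90. With a pseudocount of 10 CPM the members' median was -3.99. Of the 70 members that were read in at least 90% of SAG plate 1 cells, 60 were read in under 10% of SAG plate 2 cells, where 57.1% of all 289 such genes were. Choosing genes by a high share on SAG plate 1 favours a fall, so this count is a description.

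Rps26 and Rpl4 were still read in most cells of SAG plate 2. Of the members compared, only Rps26 was not at least 2-fold lower than on SAG plate 1. Rps26, a small subunit protein at the mRNA exit, had 72.7 and 131 CPM on the PF plates, 114 and 81.3 on the SAG plates, 111 and 108 on the COR plates and 93.5 and 110 on the GP plates. SAG plate 2 thus lay within the range of the others for Rps26, and PF plate 1 was lower. It was read in 49 of 56 cells of SAG plate 2 (87.5%, exact binomial interval 75.9% to 94.8%), with a median of 10.5 reads per cell against 22 on SAG plate 1. Rpl4 had 701 CPM on SAG plate 2, against 1469 to 1906 on the others, and was read in 43 of 56 cells (76.8%, 63.6% to 87%), with a median of 121 reads per cell against 219 on SAG plate 1. The log2 ratios to SAG plate 1 were -0.49 for Rps26 and -1.28 for Rpl4. Together they made up 63% of the member reads of SAG plate 2 and 7.32% to 9.85% on the other plates, and without them the share of SAG plate 2 was 0.0459% against 1.56% to 2.28%.

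Behind them, 8 genes were read in over 10% of the SAG plate 2 cells. Rps9 was read in 32.1% of cells, Rpl6 and Rpl24 in 21.4% each, Rps4x in 19.6%, Rpsa in 17.9%, Rps6, the target of the S6 kinases, in 14.3%, and Rplp0 and Rpl3 in 10.7% each. Their levels on SAG plates 1 and 2 were 500 and 79.7 CPM for Rps9, 455 and 47.3 for Rpl6, 193 and 31.4 for Rpl24, 426 and 37.9 for Rps4x, 678 and 39.6 for Rpsa, 419 and 16.3 for Rps6, 1661 and 29.5 for Rplp0 and 768 and 51.6 for Rpl3. Levels elsewhere differed widely among genes. Per kilobase, Rps26 had a mean of 237 CPM on the 7 plates, under the median of 251, whereas Rpl13 had 958, Rpl10 777 and Rpl7 734, and these 3 had 2.32 to 10.1 CPM on SAG plate 2.

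At the other end stood abundant genes with no read at all. Rpl14 had 471 and 520 CPM on the PF plates, 474 on SAG plate 1, 581 and 507 on the COR plates and 452 and 506 on the GP plates, was read in 86.8% to 100% of their cells, and had 0 reads on SAG plate 2. Against the floor of 3 counts over the plate it was at least 1635-fold lower than on SAG plate 1. The same bound was at least 1274-fold for Rpl19, 1206-fold for Rpl8, 1084-fold for Rpl15, 1029-fold for Rps27a, which is made as a fusion with ubiquitin, and 995-fold for Rpl23. Rpl5, which carries the 5S ribosomal RNA, fell from 427 CPM to a single read, and Rps18 from 361 CPM to 2 reads.

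**Figure D4:**
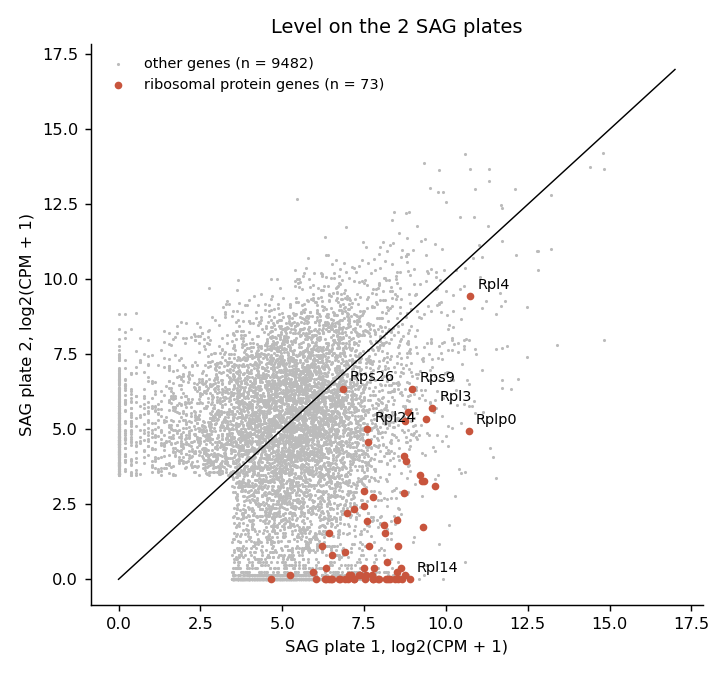
Each point is 1 gene with at least 10 CPM on either SAG plate, as log2(CPM + 1) on plate 1 (x) and plate 2 (y), with 73 ribosomal protein genes in red and the line of equal levels. Rps26 and Rpl4 lie nearest the line, and most other ribosomal protein genes lie at or near 0 on plate 2.

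Where a member was read on SAG plate 2, its level in the cells with a read varied widely. For the 34 members with more than 3 reads there and at least 10 CPM on SAG plate 1, the level within the cells that had a read was a median of 1.04 log2 units below the SAG plate 1 level (quartiles -2.25 and -0.23), and 14 of the 34 were within 2-fold. Rps19 had 65 reads, all in 1 cell, or 360 CPM in that cell against 418 on SAG plate 1. Rpl3 had 533 reads in 6 cells, 501 of them in 1 cell, and Rpl10 had 104 reads in 3 cells, 97.1% of them in 1. Cells were picked here by having a read and members by having more than 3 reads, both of which raise the level, so the values are a description.

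The summed shares of large and small subunit genes were less closely related across the cells of that plate. Across the cells of a plate, the share of reads from large subunit genes and that from small subunit genes had a Spearman rho of 0.80 to 0.96 on the 7 plates (16 to 58 cells each) and 0.29 on SAG plate 2 (56 cells), with Pearson values of 0.88 to 0.99 and 0.36. Cells of a plate share a library preparation and both shares use the same total. On SAG plate 2 the sums rest on few genes, with 56.4% of member reads from Rpl4 and 6.55% from Rps26. A cell there had a median of 4 members with a read. Whether these sparse counts account for the lower values on that plate was not tested. The rho of the ribosomal protein share with the summed level of 9 elongation factors was 0.51 to 0.79 on the 7 plates and 0.23 on SAG plate 2 (Pearson 0.39 to 0.87, and 0.18). With the Rn45s share of all reads it was positive on every plate, 0.14 to 0.73 and 0.38 (Pearson 0.16 to 0.78, and 0.38). With the number of reads other than Rn45s, the total behind the share, it was negative on every plate. The values were -0.47 to -0.16 and -0.42 (Pearson -0.53 to -0.17, and -0.46). With 77 mitochondrial ribosomal protein genes the rho was 0.04 to 0.65 and 0.07 (Pearson -0.03 to 0.84, and 0.37).

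Transcript length moved with the difference between the SAG plates. Among genes other than ribosomal protein genes with a GENCODE length, the median log2 ratio of SAG plate 2 to plate 1 was -4.50 for 45 transcripts up to 500 bases, -4.02 for 338 of 750 to 1000 bases, -1.34 for 2106 of 2000 to 3000 bases and 1.78 for 972 over 6000 bases. Across 8828 such genes length had a Spearman rho of 0.44 with the ratio (Pearson 0.44 on the log2 scale). Ribosomal protein transcripts are short, and within each length class with at least 10 members their median was lower still. It was -6.36 for 14 members up to 500 bases, -6.54 for 20 of 500 to 750 bases (other genes -4.38), -7.20 for 21 of 750 to 1000 bases and -6.48 for 11 of 1000 to 1500 bases (other genes -3.67). Within the members length had a rho of 0.03 with the ratio (Pearson 0.12). Rps26, with 447 bases, is one of the shorter transcripts and Rpl4, with 1422 bases, one of the longer. The classes were not matched on level. With 1 CPM added, an unread gene can fall further the higher its level on SAG plate 1, as for Rpl14 at 474 CPM (-8.89). With a pseudocount of 10 CPM the members' median over all lengths was -3.99. The part of length in the members' loss was not tested beyond these classes, and that of level was not tested.

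**Figure D5:**
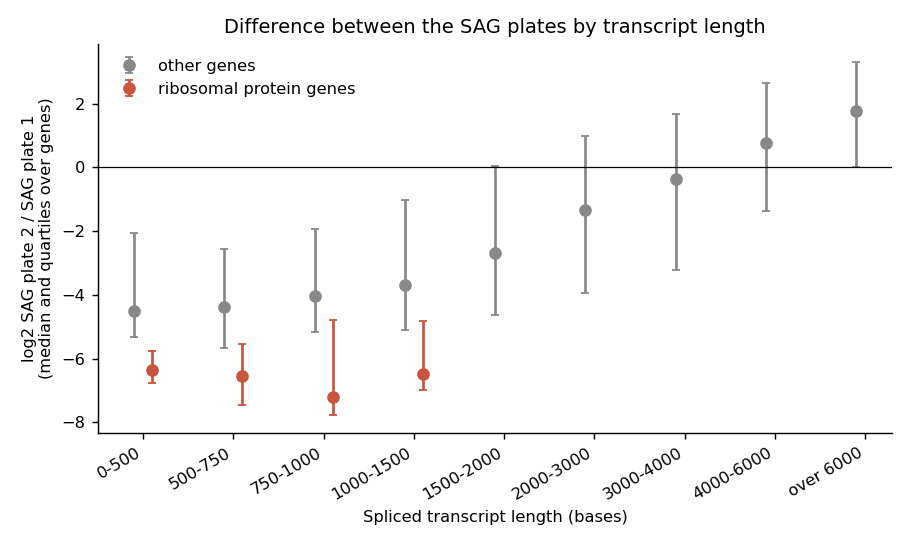
Points are the median log2 ratio of SAG plate 2 to SAG plate 1 over genes and bars the quartiles, by class of spliced transcript length in bases, for ribosomal protein genes (red, classes with at least 10) and other genes (grey). Other genes go from -4.50 in the shortest class to 1.78 in the longest, and the ribosomal protein genes lie at -6.36 to -7.20. The classes are not matched on level.

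Other genes of translation were also low on SAG plate 2. Of 6 ribosomal protein genes outside the name rule, all 6 were at least 2-fold lower than on SAG plate 1: Rps3a1 fell from 672 to 0.39 CPM and Fau, a ubiquitin-like fusion that yields a small subunit protein, from 165 to 0.29. Of the elongation factors 6 of 7 compared were lower and 0 higher, and their sum was 1967 CPM against 7554 to 10071 on the other plates. Eef1a1, which brings the aminoacyl-tRNA to the ribosome, had 7243 and 1266 CPM on SAG plates 1 and 2, and Eef2, which moves the ribosome along, had 929 and 601 CPM. Of 32 initiation factors 25 were lower and 1 higher. Of 73 mitochondrial ribosomal protein genes 60 were lower and 4 higher, with a median log2 ratio of -4.50.

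Genes that make ribosomes were also lower. Of 42 biogenesis factors compared, 27 were lower and 4 higher on SAG plate 2, and their sum was 1263 CPM against 2585 to 3329 on the other plates. Npm1, a nucleolar chaperone, had 489 and 147 CPM on SAG plates 1 and 2, and Ncl, another nucleolar protein, had 455 and 6.58. Of 11 genes of RNA polymerase I transcription, 7 were lower and 2 higher, with Ubtf, the factor that opens ribosomal RNA genes, at 80.6 and 52.4 CPM. Genes outside translation were low too: all 15 abundant housekeeping genes were lower, with a sum of 1543 CPM against 12068 to 18353, and Actb had 3615 and 622 CPM. Among 20 other mRNAs known to start with an oligopyrimidine tract, Fau, Eef1a1, Eef2 and Npm1 among them, 18 were lower and 0 higher, with a median of -3.78. These counts stand beside 49% of all genes lower, and the biogenesis factors and polymerase I genes lay nearest that share. No list was tested or matched to all genes on level or length, so nothing is read from the counts as particular to a list.

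Other genes were ranked by how closely their level over the 8 plates followed that of the summed members. Among 3515 other genes with a mean of at least 50 CPM, Psmb6, a proteasome subunit, had the highest Pearson r of log2(CPM + 1), at 0.999, followed by Serf2, Txndc17, Eef1b2, Atp5o, Selk, Sec61g, Golga5, Shfm1 and Cox6b1, all at 0.998 or more. Psmb6 had 209 and 388 CPM on the PF plates, 335 and 0 on the SAG plates, 320 and 326 on the COR plates and 248 and 288 on the GP plates. With 8 plates and 1 far from the rest, r rests on SAG plate 2. Over the other 7 plates these 10 genes had r of 0.81 to 0.94, but these plates were part of the choice, so the values are a description.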

How the data were processed

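Single cells were sorted into wells, and SMART-seq2 gave full-length cDNA primed with oligo-dT, from which tagmented libraries without molecular identifiers were read in pairs. The authors deposited raw counts of reads per gene and cell in 8 tables. Their processing notes name STAR 2.5.3a, HTSeq, Seurat 2.3.0, R 3.4.4 and mm9. Annotation, strand and treatment of multiply matching reads are not given in the sources used here. Of the columns, 0 were without a cell. Cells with under 500 genes or 10000 reads were removed (35 of 360). Passing cells had 12375 to 1907976 reads. Reads were summed per plate and tissue, divided by the total without Rn45s and given as CPM. Poisson and Clopper-Pearson intervals are at 95%. Ratios are log2 with 1 CPM added, which understates changes of low genes. Numpy 2.4.6, pandas 2.3.3, scipy 1.17.1 and edgeR 4.0.16 (TMM only, R 4.3.3) were used, and the calls were tested on simulated data. That simulation drew Poisson counts without spread between plates or cells, so its rate of false calls does not carry over to these plates. No doublet caller was run, since wells were sorted singly. For 1 cell title and description named different tissues, and the title was followed. Members and lists were chosen with earlier results of these data known. Named were the 10 members with the highest and the 10 with the lowest mean CPM over 8 plates, the 10 with the largest and the 10 with the smallest ratio between the SAG plates, those called among PF, COR and GP, pairs of relatives, the 3 highest genes of each other list, and the 10 genes most correlated with the summed members. Others named in the text were chosen after their values were seen. Some genes are not reported here by name.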

Additional observations from a re-analysis of the deposited data

How the results depend on the processing

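The low level on SAG plate 2 kept its direction under every alternative that gave a value. Cells with at least 1500 genes and 50000 reads left 0 cells of SAG plate 2, so no value for it exists there. With Rn45s counted in the total, the shares were 1.70% in PF, 1.63% in COR and 1.47% in GP, and the log2 ratio of SAG plate 2 to plate 1 was -6.67 in place of -4.15. Other shares moved past the spread between plates, taken as the standard deviation of the 2 plates of a tissue. As a mean over cells these were COR (2.37%) and GP (2.501%). Without the cell with the most member reads of each plate, GP was 2.05%. On plate 1 alone PF was 1.73%, COR 2.27% and GP 2.11%. Without relatives ending in l, GP was 2.11%. With the 10 most abundant genes out of the total, PF was 3.04%, COR 2.92% and GP 2.73%. The 2 plates lay close for COR and GP, so small shifts pass this spread. Plate 1 is itself part of the spread.

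Counts of called members were small and moved more. The 2 calls among PF, COR and GP became 1 with Rn45s in the total, with TMM factors or without the top cell, 4 as a mean over cells or on plate 1 alone, and 0 without relatives ending in l, with a pseudocount of 10 CPM or with a minimum of 50 CPM. The 13 members higher on PF plate 2 became 21 as a mean over cells, 1 with TMM factors and 8 with a pseudocount of 10 CPM. The 0 calls of SAG plate 1 became 1 with Rn45s in the total, 4 as a mean over cells, 5 against plate 1 alone and 3 with no minimum. The 2 members lower in SAG than in PF became 9 as a mean over cells, 4 without the top cell, 19 with TMM factors and 72 on plate 2 alone. On plate 2 alone 72 were lower in SAG than in COR and 73 than in GP, and with Rn45s in the total 7 were lower than in GP. Leaving out SAG plate 2, an alternative chosen after seeing the data, gave 0, 0 and 0. The median of 72 genes per cell on SAG plate 1 was 65 after thinning to 20000 reads and 69.5 with at least 5 reads for a detection. The cause of these shifts was not tested. No paired analysis was possible because no test was run and plate numbers do not join cells of different tissues. With 1 sample per tissue, counting error and the spread between plates are the limits on every value.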

Other observations

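Among the lists that were set beside the ribosomal protein genes, p53 target genes did not fall in sum on SAG plate 2. Their 10 genes summed to 1144 CPM on SAG plate 1, 1499 CPM on SAG plate 2 and 406 to 974 CPM on the other 6 plates. Most of the sum on both SAG plates came from 1 gene, Cdkn1a, a cell cycle inhibitor. Cdkn1a had 704 and 1182 CPM on SAG plates 1 and 2, 97.04 and 126 on the PF plates, 199 and 162 on the COR plates and 39.1 and 528 on the GP plates. Of the 8 genes compared between the SAG plates, 4 were at least 2-fold lower on plate 2 and 2 were higher, with a median log2 ratio of -1.55. Mdm2, which binds and degrades p53, had 125 and 26.99 CPM. The ribosomal protein relative Rps27l, also known as a p53 target, had 89.9 CPM on SAG plate 1 and 0 reads on SAG plate 2.

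The long nuclear RNAs Malat1 and Neat1 were lower on SAG plate 2 in the same comparison, with Malat1 at 9433 and 2053 CPM on SAG plates 1 and 2 and in 90% and 80.4% of their cells. The 105 rows of small nucleolar RNAs, which guide the modification of ribosomal RNA, summed to 29 and 18.1 CPM on the SAG plates and 15.4 to 26.9 CPM on the others.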
